A study of Homo sapiens with 6 samples.

Results

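The genes described here encode the aminoacyl-tRNA synthetases, the enzymes that join each amino acid to its transfer RNA. They were taken by name from a fixed list of 19 cytosolic and 16 mitochondrial enzymes. All 35 were found among the 58735 gene identifiers in the deposited expression table. RNA-seq was performed on HGC27, an established human gastric cancer cell line, in 2 groups. The ARV-825 group (n = 3 libraries) received ARV-825 for 48 h at the dose its labels write as ARV125nM. The control group (n = 3 libraries) is given as untreated by its labels and as DMSO by the methods of the study, and is called DMSO here. ARV-825 is a proteolysis-targeting chimera, a molecule that brings proteins to the cereblon ubiquitin ligase and so directs them to degradation. No label says that the libraries came from separate cultures, so the p-values measure the spread between these libraries, which may be technical. All cells came from 1 line. RNA was taken from whole cultures, and fewer cells making a transcript cannot be told apart from less of it per cell.

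Each synthetase recognises its own amino acid and the matching tRNAs, and the charged tRNA then carries the amino acid to the ribosome. Nuclear genes encode both sets. The enzymes named with a final 1 work mainly in the cytosol, and those named with a final 2 are imported to serve the small translation system inside mitochondria. When amino acids are short or the endoplasmic reticulum is stressed, kinases phosphorylate the initiation factor eIF2α, the transcription factor ATF4 is made, and ATF4 with a C/EBP partner raises many cytosolic synthetase genes together with genes for amino acid synthesis and import.

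Expression values were FPKM, the fragments mapped to a gene scaled by the length of its exons and by the depth of the library. The fold changes are differences of mean log2(FPKM + 1), ARV-825 minus DMSO, from limma, and they understate changes of low genes. A gene was called at an adjusted p under 0.05 (Benjamini-Hochberg over the 13442 genes with a mean of at least 1 FPKM), and a larger change also had an absolute log2 fold change over 1. The libraries held 14837518, 15201942 and 14821971 recovered fragments in genes in ARV-825 and 17023962, 16626609 and 19145661 in DMSO. ARV-825 replicate 1 stood apart from the other 2 ARV-825 libraries: the chi-square of the fragment counts per degree of freedom was 7.497 and 6.75 against them, and 1.68 between those 2. Fragments from the mitochondrial genome made up 9.84% to 11.97% of each ARV-825 library and 5.62% to 6.24% of each DMSO library. The epithelial markers KRT8, KRT18, KRT19, CDH1 and EPCAM summed to 0.549 to 0.738 FPKM in ARV-825, nearly all of it EPCAM, and 0 to 0.12 FPKM in DMSO. This gastric cancer line thus had these epithelial markers at or near 0. Of the 2 mesenchymal markers VIM lay at 245 to 248 FPKM in ARV-825 and 262 to 274 FPKM in DMSO. CDH2 was at 0 in every ARV-825 library and at most 0.0801 FPKM in DMSO. The 4 immune markers summed to at most 1.04 FPKM in ARV-825 and 1.84 FPKM in DMSO. Their part in the results was not tested.

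Most synthetase genes were lower in ARV-825. Among the 19 cytosolic genes 16 fell and 3 rose, and 6 of those that fell passed the larger threshold. Among the 15 mitochondrial genes that could be tested 12 fell and 3 rose, and 2 passed the larger threshold, both lower. Over all genes tested 40.2% were called lower and 37.0% higher, and 12.1% were lower and 8.81% higher past the larger threshold. The median log2 fold change was −0.78 for the cytosolic genes and −0.69 for the mitochondrial genes, against −0.02 for all genes tested. The directions held under every scaling apart from those of HARS1 and RARS2 under TPM, a scaling that moves the median of all genes to −0.31. Under TPM HARS1 was called lower (limma adjusted p = 0.0190). RARS2 had a negative log2 fold change there but was not called (limma adjusted p = 0.384). The 3 ARV-825 values of each of the 35 genes lay wholly above (6 genes) or wholly below (29 genes) the 3 DMSO values. Of all genes tested 38.5% lay wholly above and 41.6% wholly below, 80.1% in all. For a single gene the exact two-sided permutation test of 3 against 3 libraries cannot go below p = 0.1, and each of the 35 genes reached that value.

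**Figure D1:**
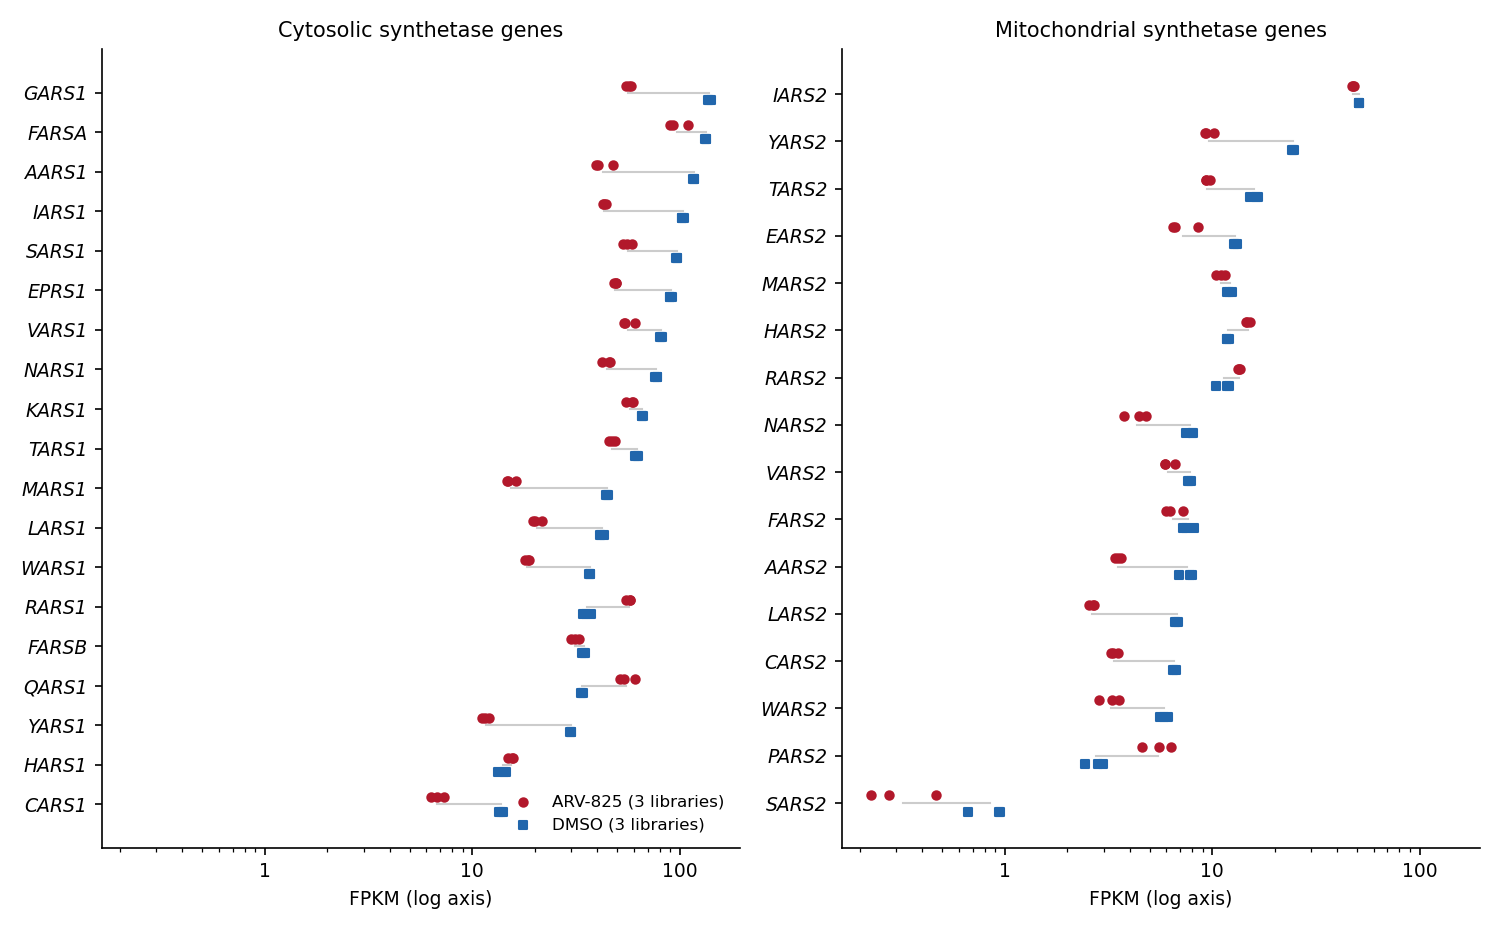
FPKM of each synthetase gene in each library on a log axis, cytosolic genes in 1 panel and mitochondrial genes in the other, with the 3 ARV-825 libraries as red circles and the 3 DMSO libraries as blue squares. Red lies left of blue for 29 genes and right of blue for 6 (QARS1, RARS1, HARS1, PARS2, HARS2 and RARS2). Under TPM HARS1 is called lower, and RARS2 has a negative log2 fold change without a call.

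The largest fall was that of MARS1 (chr12:57475445-57517569, GRCh38, plus strand), the enzyme for methionine, whose product also charges the initiator tRNA that starts every cytosolic protein. MARS1 had 16.3, 14.7 and 14.9 FPKM in ARV-825, against 44.9, 44.1 and 44.8 FPKM in DMSO. The highest ARV-825 library was thus far below the lowest DMSO library, with means of 15.3 ± 0.894 FPKM in ARV-825 and 44.6 ± 0.430 FPKM in DMSO (SD, n = 3 each). The log2 fold change was −1.48 (SE 0.0458, 95% interval −1.59 to −1.38, limma adjusted p = 4.68e-07), and the ratio of means was 2.91-fold lower. The kit did not keep strand, and 5.05% of the MARS1 exon length overlaps exons of DDIT3 on the other strand. Reads there cannot be told apart between the 2 genes.

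AARS1 (chr16:70252295-70289543, minus strand) charges the alanine tRNAs. AARS1 had 47.6, 39.3 and 40.5 FPKM in ARV-825, against 116, 117 and 117 FPKM in DMSO. ARV-825 replicate 1 was the highest of its group, and all 3 ARV-825 libraries were far below the DMSO libraries (log2 fold change −1.44, SE 0.0702, limma adjusted p = 2.59e-06). GARS1 (chr7:30594681-30634033, plus strand) makes the glycine enzyme of both the cytosol and the mitochondria. GARS1 had 58.2, 56.7 and 55.0 FPKM in ARV-825, against 138, 137 and 141 FPKM in DMSO. It was the most abundant synthetase mRNA per exon length in DMSO and ranked 4 of 35 in ARV-825, after FARSA, KARS1 and RARS1 (log2 fold change −1.28, SE 0.0344, limma adjusted p = 3.36e-07).

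YARS1 (chr1:32775237-32818153, minus strand) charges the tyrosine tRNAs. It had 12.1, 11.2 and 11.5 FPKM in ARV-825, against 30.0, 29.7 and 29.8 FPKM in DMSO. The 2 groups were tight and did not overlap (log2 fold change −1.29, SE 0.0379, limma adjusted p = 3.88e-07). IARS1 (chr9:92210207-92293756, minus strand), for isoleucine, had 42.5, 44.1 and 43.3 FPKM in ARV-825, against 102, 103 and 105 FPKM in DMSO. The spread within each group was a small part of the gap (log2 fold change −1.24, SE 0.0311, limma adjusted p = 2.68e-07). LARS1 (chr5:146113038-146182660, minus strand) charges the leucine tRNAs and also serves as a leucine sensor upstream of the growth kinase mTORC1. LARS1 had 19.6, 19.97 and 21.7 FPKM in ARV-825, against 41.1, 43.4 and 41.5 FPKM in DMSO, which gave a log2 fold change of −1.004 (SE 0.0477, limma adjusted p = 2.33e-06), just inside the larger threshold. LARS1 fell short of that threshold without ARV-825 replicate 1 (−0.98), ARV-825 replicate 2 (−0.99) or DMSO replicate 2 (−0.98) and under quantile normalization (−0.91), and 5 cytosolic genes passed it in each of those fits.

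A middle set fell by less. WARS1 (tryptophan) had 18.7, 18.6 and 17.99 FPKM in ARV-825, against 37.1, 37.1 and 36.4 FPKM in DMSO, a log2 fold change of −0.96. CARS1 (cysteine) had 7.33, 6.73 and 6.34 FPKM in ARV-825, against 14.1, 13.7 and 13.4 FPKM in DMSO, a log2 fold change of −0.92. The ratio of means of CARS1, 0.495, was close to the 0.487 of LARS1. EPRS1 makes a fused enzyme for glutamate and proline and had 48.1, 49.4 and 49.3 FPKM in ARV-825, against 89.6, 92.1 and 89.3 FPKM in DMSO, a log2 fold change of −0.87. SARS1 (serine) and NARS1 (asparagine) both had a log2 fold change of −0.78, with ARV-825 means of 56.1 and 44.6 FPKM against DMSO means of 96.9 and 77.3 FPKM. VARS1 (valine) had a log2 fold change of −0.52 and TARS1 (threonine) of −0.38. All 7 were called, with limma adjusted p values of at most 8.25e-05.

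FARSA and FARSB make the alpha and beta chains of the phenylalanine enzyme. FARSA had 110, 90.1 and 92.4 FPKM in ARV-825, against 134, 133 and 133 FPKM in DMSO, and FARSB had 30.1, 31.4 and 32.9 FPKM in ARV-825, against 35.02, 33.9 and 34.7 FPKM in DMSO. Both chains were called lower, FARSA with a log2 fold change of −0.45 (SE 0.0742, limma adjusted p = 0.00108) and FARSB with −0.13 (SE 0.0412, limma adjusted p = 0.0218). The FARSB call was lost without ARV-825 replicate 2, DMSO replicate 1 or DMSO replicate 3, with limma adjusted p values of 0.0529, 0.0767 and 0.0685, and under quantile normalization, where the log2 fold change was −0.0143 (limma adjusted p = 0.804). FARSA nevertheless had the highest FPKM of all synthetase genes in ARV-825. KARS1, the lysine enzyme of both compartments, had 58.6, 55.3 and 59.3 FPKM in ARV-825, against 65.8, 66.1 and 66.4 FPKM in DMSO. Its fall was small but beyond the replicate spread (log2 fold change −0.19, SE 0.0364, limma adjusted p = 0.00231).

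QARS1 and RARS1 went the other way. QARS1 (chr3:49095932-49105135, minus strand) charges the glutamine tRNAs. QARS1 had 60.7, 51.7 and 53.6 FPKM in ARV-825, against 33.6, 34.1 and 33.8 FPKM in DMSO. Every ARV-825 library exceeded every DMSO library, with a ratio of means of 1.64 (log2 fold change 0.69, SE 0.0602, limma adjusted p = 4.14e-05). RARS1 (chr5:168486445-168519299, plus strand) charges the arginine tRNAs and had 55.3, 57.6 and 57.6 FPKM in ARV-825, against 37.4, 35.3 and 34.4 FPKM in DMSO. The groups were again separate, with a ratio of means of 1.59 (log2 fold change 0.66, SE 0.0418, limma adjusted p = 8.6e-06). These 2 genes ranked 17 and 15 of 35 in DMSO and 7 and 3 in ARV-825, and both stayed called higher under each alternative scaling, filter and left-out library.

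HARS1, for histidine, had 15.7, 14.9 and 15.5 FPKM in ARV-825, against 13.3, 14.5 and 14.3 FPKM in DMSO. The rise was the smallest among the called synthetase genes that were higher and lay close to the threshold (log2 fold change 0.12, SE 0.0450, limma adjusted p = 0.0400), and under TPM HARS1 was called lower instead (log2 fold change −0.18, limma adjusted p = 0.0190). It was also lost without ARV-825 replicate 1 or 3 and without DMSO replicate 1 or 3, where limma adjusted p values lay between 0.0683 and 0.139. Scaled to fragments in genes the log2 fold change was 0.0419 (limma adjusted p = 0.399) and under voom 0.0442 (adjusted p = 0.419), and the call was also lost with no filter and with no intensity trend. HARS1 and HARS2 start 85 bases apart on opposite strands of chromosome 5, and their exons overlap by 437 bases, 5.56% of the HARS1 and 11.7% of the HARS2 exon length. Reads in that stretch cannot be assigned to either gene without strand.

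**Figure D2:**
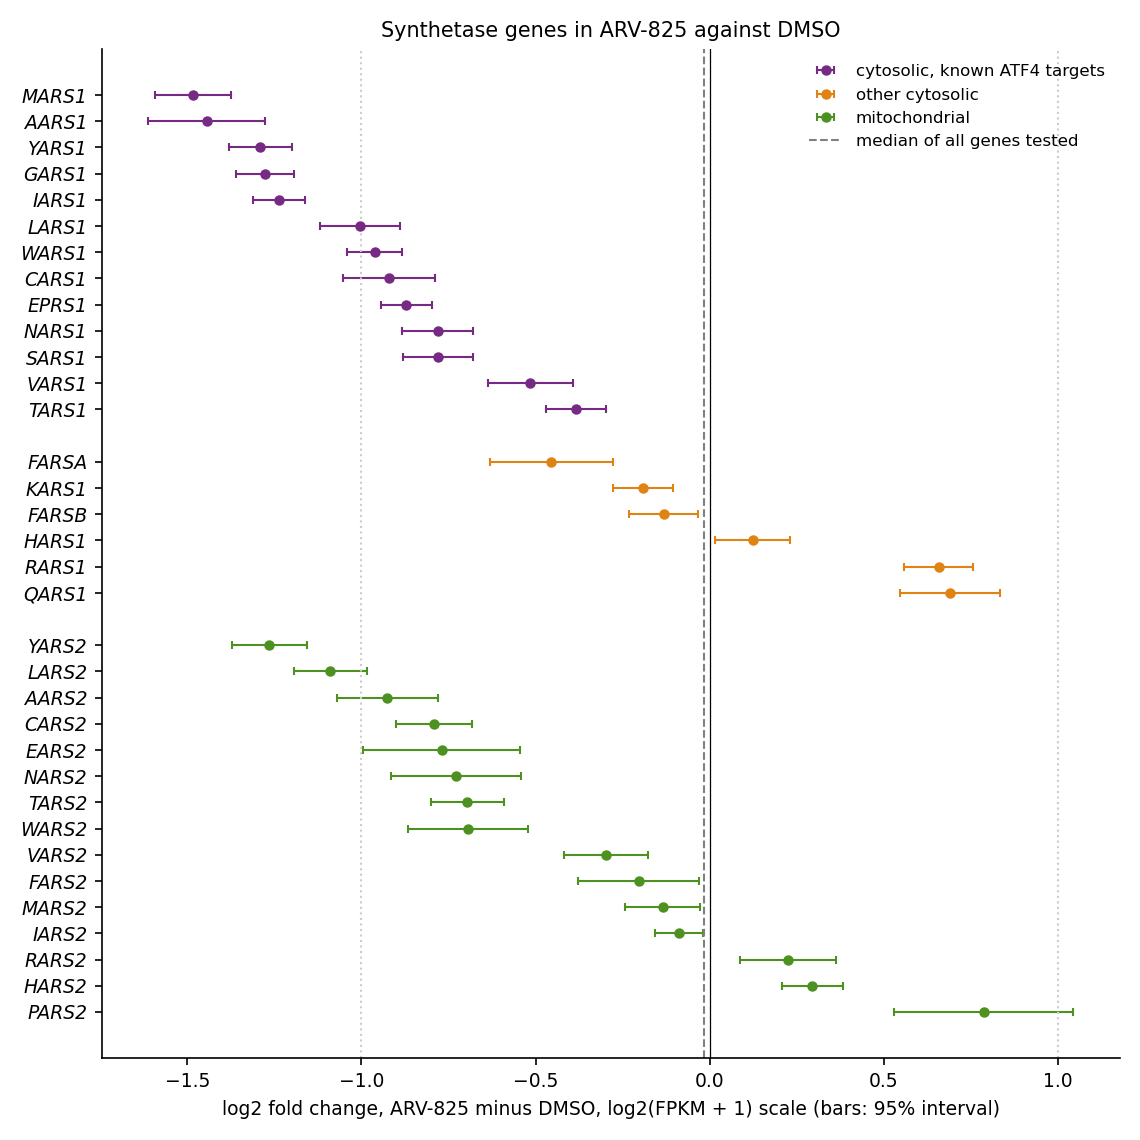
Log2 fold change (ARV-825 minus DMSO, on log2(FPKM + 1)) of each tested synthetase gene with its 95% interval from limma, with the known ATF4 targets, the other cytosolic genes and the mitochondrial genes in different colours and a dashed line at the median of all genes tested. MARS1 lies lowest at −1.48 and PARS2 highest at 0.79, and 28 of the 34 intervals lie wholly below 0.

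Of the cytosolic genes, 13 are known from work on amino acid and endoplasmic reticulum stress as ATF4 targets, namely AARS1, CARS1, EPRS1, GARS1, IARS1, LARS1, MARS1, NARS1, SARS1, TARS1, VARS1, WARS1 and YARS1. Of all genes tested 40.2% were called lower and 37.0% higher, and 12.1% were lower past the larger threshold. All 13 known targets were lower in ARV-825 in every fit that was run, 6 of them past the larger threshold. They had a median log2 fold change of −0.96 and a range of −1.48 to −0.38. Their summed level was 478, 462 and 465 FPKM in ARV-825, against 930.0, 936 and 934 FPKM in DMSO, so that the groups were far apart. The other 6 cytosolic genes (FARSA, FARSB, HARS1, KARS1, QARS1 and RARS1) were split, 3 higher and 3 lower, with a median log2 fold change of −0.0046. Their summed level was 330.1, 301 and 311 FPKM in ARV-825, against 319, 317 and 317 FPKM in DMSO, and the groups overlapped. The 2 sets were drawn up with earlier results of these data known, so the contrast is a description only. Split by the fold of the catalytic domain, 8 of the 10 cytosolic genes of class I were lower and 2 higher (median −0.94), and 8 of the 9 of class II were lower and 1 higher (median −0.45).

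Among the cytosolic genes, 7 encode enzymes of the multi-synthetase complex, an assembly that holds several synthetases on non-enzymatic scaffold proteins. Of these, EPRS1, IARS1, KARS1, LARS1 and MARS1 were lower and QARS1 and RARS1 were higher, so both rises over 0.5 on the log2 scale among cytosolic genes were within the complex. The scaffold genes AIMP1, AIMP2 and EEF1E1 were all lower, with a median log2 fold change of −0.23. EEF1E1, whose product anchors the methionine enzyme, had 2.93, 1.99 and 2.92 FPKM in ARV-825, against 9.82, 8.22 and 10.0 FPKM in DMSO (log2 fold change −1.53, SE 0.125, limma adjusted p = 3.05e-05). On the log2(FPKM + 1) scale EEF1E1 moved about as far as MARS1. By the ratio of means it fell further, 3.58-fold against 2.91-fold. The EEF1E1 values rest on 63 to 90 fragments in ARV-825 and 298 to 426 in DMSO, those of MARS1 on 1528 to 1674 and 5335 to 6350. Of the EEF1E1 exon length, 18.65% is shared with the same-strand gene EEF1E1-BLOC1S5, which had a mean of 0 FPKM. AIMP1 had a log2 fold change of −0.23 and AIMP2 of −0.17. Of the AIMP2 exon length, 28.9% overlaps EIF2AK1 on the other strand.

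The promoters were read for the C/EBP-ATF response element, the composite site that ATF4 and a C/EBP partner bind, searched as TGATGNAA on both strands. RefSeq windows of 250 bases before to 50 after a start (GRCh38.p14, up to 2 starts a gene) were at hand for 30 of the 35 genes, all but LARS1, VARS1, YARS1, AARS2 and VARS2. The letters were found in 7 of 16 cytosolic genes (43.8%) and in 1 of 14 mitochondrial genes (7.14%), against 238 of 9145 genes tested that had a window (2.60%). By single windows the share was 3.62% over the whole table. All 7 cytosolic genes belong to the known ATF4 targets, of which 10 had a window, and none of the other 6 cytosolic genes held the letters. The known targets EPRS1, SARS1 and WARS1 had no match in these windows. The matches are printed to show their letters and the bases around them. The search itself fixed 7 of the 8 letters, so their likeness is no result. Each line gives 30 bases 5′ to 3′ along the strand of the gene with the match in capitals, and a match on the opposite strand reads TTNCATCA.

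TARS1, chr5:33440956-33440985, plus strand: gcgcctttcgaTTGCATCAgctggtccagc
GARS1, chr7:30594834-30594863, plus strand: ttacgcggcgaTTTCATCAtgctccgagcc
IARS1, chr9:92293692-92293721, minus strand: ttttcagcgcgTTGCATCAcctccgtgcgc
CARS1, chr11:3057407-3057436, minus strand: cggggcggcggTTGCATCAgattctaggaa
MARS1, chr12:57488053-57488082, plus strand: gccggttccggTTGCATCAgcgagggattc
AARS1, chr16:70289675-70289704, minus strand: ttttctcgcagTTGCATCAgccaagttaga
NARS1, chr18:57621804-57621833, minus strand: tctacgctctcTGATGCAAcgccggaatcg
YARS2, chr12:32756076-32756105, minus strand: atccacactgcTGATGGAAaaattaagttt

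At the base that the search leaves free, TARS1, IARS1, CARS1, MARS1, AARS1 and NARS1 carry C when read as TGATGCAA. GARS1 reads TGATGAAA on the opposite strand and YARS2 reads TGATGGAA. The match began within 33 bases of the start in 6 of the 7 cytosolic genes, at base 3 after it in TARS1, base 15 after it in NARS1, and bases −2, −4, −13 and −33 in CARS1, MARS1, IARS1 and GARS1, whereas it lay at −187 in AARS1 and at −197 in YARS2. The 7 cytosolic genes with the letters had a median log2 fold change of −1.24 (range −1.48 to −0.38), and the 9 with a window and no match had a median of −0.19 (range −0.96 to 0.69). These 9 join the 6 genes outside the ATF4 list with the known targets EPRS1, SARS1 and WARS1, so the contrast largely repeats the split by that list. EPRS1, SARS1 and WARS1 had −0.87, −0.78 and −0.96. CARS1, NARS1 and TARS1, with the letters, had −0.92, −0.78 and −0.38. MARS1, AARS1, GARS1 and IARS1, 4 of the 6 cytosolic genes past the larger threshold, held the letters, and the other 2, YARS1 and LARS1, had no window. TARS1, with the letters 3 bases from its start, fell least of the 7. Outside the synthetases the letters were in 2 of 11 genes of the eIF2α and ATF4 list, CEBPG and PPP1R15B, and in 4 of 11 further ATF4 targets, ASNS, SLC3A2, SLC7A1 and CHAC1. PPP1R15B, which reads TGATGCAA, was higher in ARV-825 (log2 fold change 0.67, limma adjusted p = 7.71e-06). A match of letters is not a measurement of binding, and its part in the changes was not tested.

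**Figure D3:**
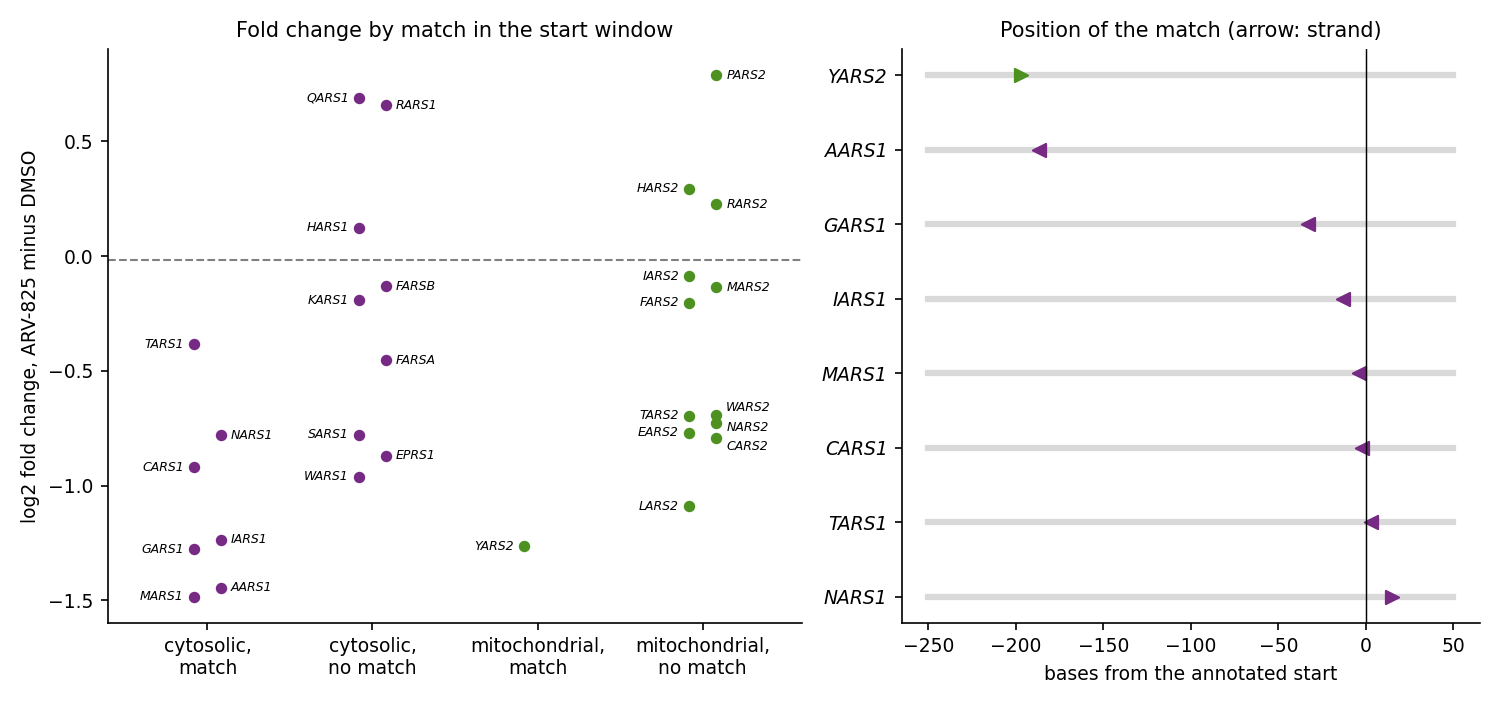
Left, log2 fold change (ARV-825 minus DMSO) of the synthetase genes with a RefSeq promoter window, split by compartment and by whether a window holds TGATGNAA on either strand, with a dashed line at the median of all genes tested. Right, the place of the match in bases from the annotated start, with arrows for the strand of the match relative to the gene. The 8 synthetase genes with the letters lie below 0, and the genes without them lie on both sides of 0.

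The mitochondrial genes were mostly lower, with a few close to level and 3 higher. YARS2 (chr12:32727490-32755902, minus strand), the mitochondrial tyrosine enzyme, had 10.2, 9.27 and 9.34 FPKM in ARV-825, against 24.8, 24.2 and 24.5 FPKM in DMSO. It had the lowest log2 fold change of this set on the log2(FPKM + 1) scale (−1.26, SE 0.0454, limma adjusted p = 8.14e-07), close to the −1.29 of YARS1. By the ratio of means LARS2, at 0.391, and the untested SARS2, at 0.379, were slightly below YARS2, at 0.393. LARS2 (chr3:45388506-45549421, plus strand), for leucine, had 2.67, 2.54 and 2.70 FPKM in ARV-825, against 6.88, 6.63 and 6.73 FPKM in DMSO. The groups were well apart, and LARS2 was the other mitochondrial gene past the larger threshold (log2 fold change −1.09, SE 0.0441, limma adjusted p = 1.25e-06).

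AARS2, for alanine, was low in both groups, at 3.53, 3.64 and 3.39 FPKM in ARV-825, against 7.81, 8.01 and 6.94 FPKM in DMSO, a log2 fold change of −0.93. EARS2, which loads glutamate, had 8.56, 6.49 and 6.63 FPKM in ARV-825, against 12.9, 12.8 and 13.1 FPKM in DMSO, a log2 fold change of −0.77. Its ARV-825 replicate 1 was set off from the other 2 libraries of the group but was still below DMSO. CARS2 (cysteine), NARS2 (asparagine), TARS2 (threonine) and WARS2 (tryptophan) had log2 fold changes of −0.79, −0.73, −0.70 and −0.69. These 6 genes were called lower, with limma adjusted p values of at most 0.000238. VARS2, for valine, was called with a log2 fold change of −0.30, and 22.0% of its exon length overlaps GTF2H4.

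Another 3 mitochondrial genes were close to level. IARS2 (isoleucine), the most abundant of the set in both groups, had 48.5, 47.3 and 47.7 FPKM in ARV-825, against 51.0, 50.8 and 50.8 FPKM in DMSO, a log2 fold change of −0.09 (limma adjusted p = 0.0282). MARS2 (methionine) had a log2 fold change of −0.14 (limma adjusted p = 0.0293), with 10.5, 11.02 and 11.5 FPKM in ARV-825, against 12.1, 11.9 and 12.5 FPKM in DMSO. FARS2 (phenylalanine) had a log2 fold change of −0.20 (limma adjusted p = 0.0367), and its highest ARV-825 library, at 7.21 FPKM, nearly met its lowest DMSO library, at 7.26 FPKM. All 3 calls lay near the threshold. Each was lost without ARV-825 replicate 2 (limma adjusted p = 0.0764 for IARS2, 0.0602 for MARS2 and 0.107 for FARS2) and without DMSO replicate 3 (0.0854, 0.105 and 0.0697). IARS2 was also lost without ARV-825 replicate 3 or DMSO replicate 1 or 2, MARS2 without DMSO replicate 1, and FARS2 without ARV-825 replicate 3 or DMSO replicate 2, at limma adjusted p values between 0.0767 and 0.121. Under quantile normalization the log2 fold changes were −0.0235 for IARS2, −0.0558 for MARS2 and −0.13 for FARS2, and none was called.

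PARS2, HARS2 and RARS2 were higher. PARS2 (chr1:54756898-54764514, minus strand) encodes the mitochondrial proline enzyme. PARS2 had 6.34, 5.56 and 4.60 FPKM in ARV-825, against 2.45, 2.97 and 2.83 FPKM in DMSO. It had the largest rise of all 35 genes, although its ARV-825 libraries were spread widely (log2 fold change 0.79, SE 0.108, limma adjusted p = 0.000433). HARS2, for histidine, had 15.3, 14.5 and 14.7 FPKM in ARV-825, against 12.1, 11.8 and 11.8 FPKM in DMSO (log2 fold change 0.29, SE 0.0367, limma adjusted p = 0.000268), but under TPM its log2 fold change was 0.0052 and the call was lost (limma adjusted p = 0.931). RARS2, for arginine, had 13.6, 13.4 and 13.4 FPKM in ARV-825, against 10.4, 11.8 and 12.01 FPKM in DMSO (log2 fold change 0.23, SE 0.0575, limma adjusted p = 0.00937). Under TPM the RARS2 call was lost and the sign reversed (log2 fold change −0.0655, limma adjusted p = 0.384). The RARS2 call was also lost under voom (log2 fold change 0.155, voom adjusted p = 0.0520).

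SARS2, the mitochondrial serine enzyme, was below the level needed for the test. It had 0.276, 0.226 and 0.465 FPKM in ARV-825, against 0.950, 0.665 and 0.935 FPKM in DMSO. These values rest on 13, 11 and 22 fragments in ARV-825, against 55, 37 and 61 fragments in DMSO, too few for a precise level. The groups did not overlap, and with genes of at least 0.1 FPKM admitted the log2 fold change was −0.48 (SE 0.105, limma adjusted p = 0.00778). Of the SARS2 exon length, 10.8% overlaps exons of MRPS12 on the other strand, a gene with a mean of 20.4 FPKM, and 46.2% is shared with a same-strand gene that had a mean of 0.0131 FPKM. Reads in these stretches cannot be told apart between the genes.

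The genes that complete mitochondrial charging had smaller changes. Glutaminyl-tRNA is made in mitochondria by loading glutamate with EARS2 and converting it with the amidotransferase of QRSL1, GATB and GATC. QRSL1 had a log2 fold change of −0.39 and GATB of −0.34 (limma adjusted p = 0.00114 and 0.0147). GATC was not called (log2 fold change 0.04, 95% interval −0.10 to 0.18, limma adjusted p = 0.532). Under TPM GATC was called lower (log2 fold change −0.24, limma adjusted p = 0.00926). Of the GATC exon length, 39.1% overlaps exons of SRSF9 on the other strand, a gene with a mean of 26.4 FPKM. MTFMT, which formylates the methionine on the mitochondrial initiator tRNA, rose (log2 fold change 0.42, limma adjusted p = 0.000626, but 0.17 and not called under TPM, adjusted p = 0.0890), with 7.29, 6.42 and 7.23 FPKM in ARV-825, against 5.19, 4.67 and 5.02 FPKM in DMSO. The proofreading factor genes DTD1 and DTD2 had log2 fold changes of −0.53 and −0.32, and the DTD2 call was lost without DMSO replicate 1 or 2 (limma adjusted p = 0.0732 and 0.0910). XPOT, the exportin that carries tRNAs out of the nucleus, had 12.8, 13.8 and 13.4 FPKM in ARV-825, against 41.7, 42.2 and 42.0 FPKM in DMSO. Its log2 fold change of −1.59 (SE 0.0374, limma adjusted p = 2.27e-07) was beyond that of any synthetase gene.

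For 14 amino acids both a cytosolic and a mitochondrial gene were compared within each library. In 11 of the 13 pairs with both genes tested both members were lower, and in the HARS and RARS pairs both were higher. The ratio of the cytosolic to the mitochondrial level separated the groups in 9 of the 14 pairs, lower in ARV-825 in 6 and higher in 3 (LARS, RARS and TARS). That count was not set against other gene pairs, and single genes were separate more often, in 80.1% of all genes tested. IARS1 over IARS2 was 0.876, 0.932 and 0.907 in ARV-825, against 2.01, 2.02 and 2.07 in DMSO. By FPKM the mitochondrial isoleucine gene was thus the higher in ARV-825 and the cytosolic one in DMSO. That order rests on the exon lengths used, 7401 bases for IARS1 and 4165 for IARS2. By fragments IARS1 was above IARS2 in every library, with 4583, 4903 and 4691 against 2944, 2959 and 2910 in ARV-825. Which mRNA was the more abundant is therefore not settled. MARS1 over MARS2 was 1.56, 1.34 and 1.29 in ARV-825, against 3.70, 3.72 and 3.58 in DMSO. YARS1 over YARS2, in contrast, was 1.18, 1.21 and 1.23 in ARV-825, against 1.21, 1.23 and 1.22 in DMSO, and the groups overlapped. LARS1 over LARS2 was 7.35, 7.85 and 8.04 in ARV-825, against 5.97, 6.54 and 6.17 in DMSO.

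Summed over the sets, the cytosolic genes had 808, 763 and 776 FPKM in ARV-825, against 1249, 1253 and 1251 FPKM in DMSO. The mitochondrial genes had 155, 145 and 147 FPKM in ARV-825, against 193, 194 and 193 FPKM in DMSO. The cytosolic sum was thus 0.625 of its DMSO level and the mitochondrial sum 0.771, and the ratio of the 2 sums was 5.23, 5.26 and 5.27 in ARV-825, against 6.46, 6.46 and 6.49 in DMSO. A common factor for all genes of a library, as under TPM, leaves this ratio unchanged. Quantile normalization is not such a factor, and the ratio was not computed under it.

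**Figure D4:**
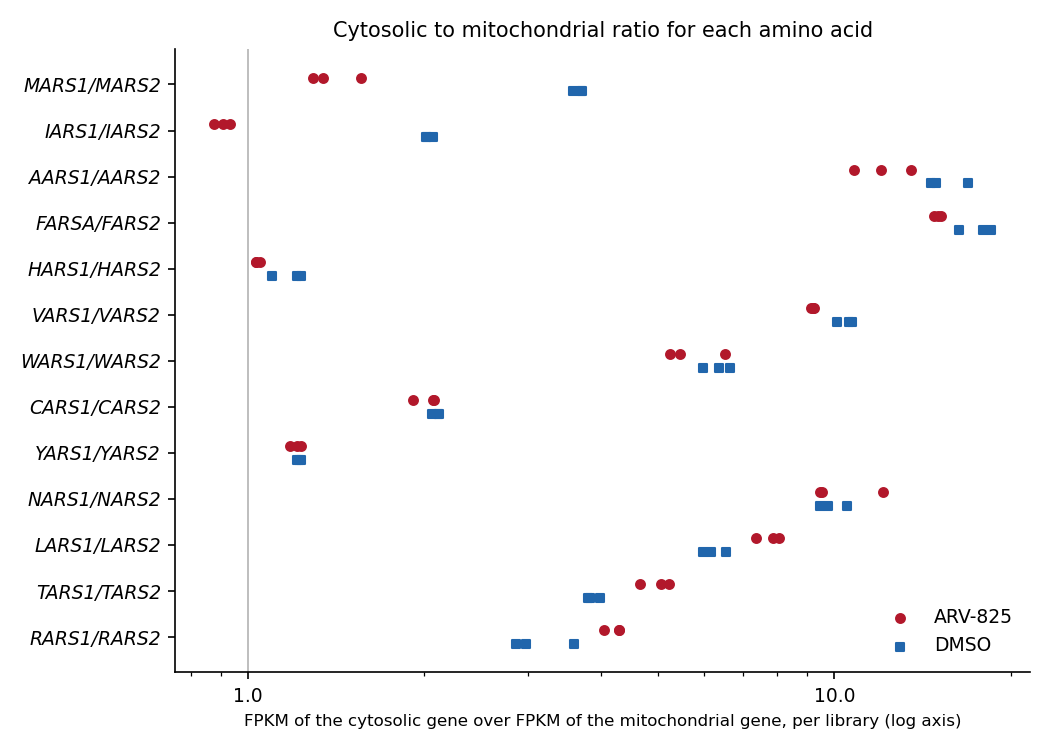
Ratio of the cytosolic to the mitochondrial FPKM for each amino acid with both genes tested, in each library on a log axis, with ARV-825 as red circles and DMSO as blue squares. The isoleucine ratio is below 1 in the 3 ARV-825 libraries and above 2 in the 3 DMSO libraries, and the tyrosine ratio overlaps between the groups.

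The regulators of the pathway were read in the same libraries. ATF4 had 114, 106 and 105 FPKM in ARV-825, against 263, 269 and 264 FPKM in DMSO (log2 fold change −1.28, SE 0.0396, limma adjusted p = 4.68e-07). The fall of ATF4 mRNA was of the size seen for GARS1 and YARS1. NUPR1, a stress-induced cofactor gene, had 1.60, 1.57 and 1.54 FPKM in ARV-825, against 13.6, 13.4 and 13.3 FPKM in DMSO (log2 fold change −2.49). All of these ARV-825 libraries were below all DMSO libraries. The gene of the ATF4 partner CEBPG had 11.4, 11.2 and 10.7 FPKM in ARV-825, against 44.2, 44.5 and 43.6 FPKM in DMSO (log2 fold change −1.90), and CEBPB had a log2 fold change of −1.39. PPP1R15A, which directs a phosphatase to eIF2α, had 53.9, 47.0 and 47.2 FPKM in ARV-825, against 9.07, 9.58 and 9.71 FPKM in DMSO (log2 fold change 2.27). Of the 13 genes listed for the eIF2α kinases, phosphatases and ATF4 partners, 8 were lower, 3 higher and 2 not called (median −0.39). Over all genes tested 40.2% were called lower and 37.0% higher, so being called does not set this list apart. DDIT3, a stress factor gene that overlaps MARS1, had a log2 fold change of 0.26, or −0.03 under TPM, and 27.2% of its exon length in the overlap.

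A further 12 genes were listed as known ATF4 targets in amino acid supply and stress, outside the synthetases and the 13 genes above. Of all genes tested 40.2% were called lower, and 12.1% were lower past the larger threshold. All 12 were lower, 9 past the larger threshold, with a median log2 fold change of −1.74. Among the synthetase genes the known targets thus had a smaller median change, at −0.96. The lowest log2 fold changes were those of TRIB3, a pseudokinase gene, at −3.50, CHAC1, of glutathione breakdown, at −3.36, the cystine transporter gene SLC7A11 at −2.44 and the cationic amino acid transporter gene SLC7A1 at −2.10. Their lists were drawn up with results of these data known. The 12 leave out PPP1R15A, PPP1R15B and DDIT3, which were placed among the 13 genes above. These were higher, at 2.27, 0.67 and 0.26 (DDIT3 −0.03 under TPM), while 8 of the 13 were lower. That all 12 were lower therefore holds for this choice of genes only. Phosphorylated eIF2α and ATF4 protein were not measured here.

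**Figure D5:**
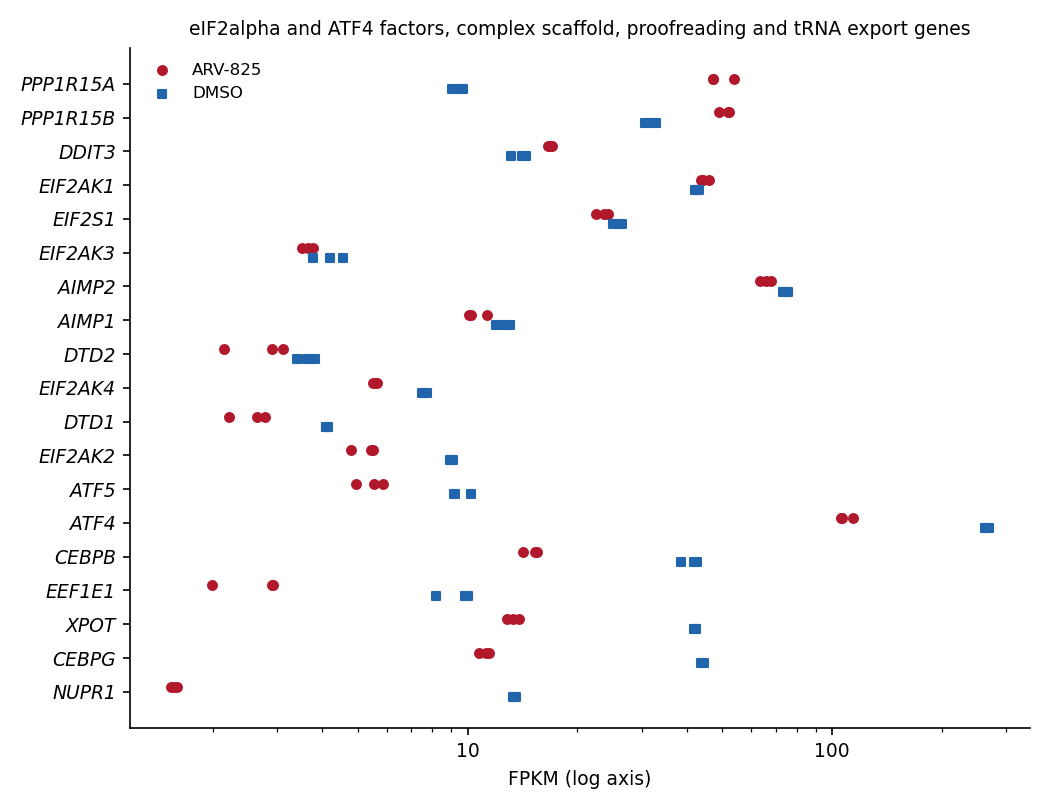
FPKM on a log axis of the eIF2α kinases and phosphatase subunits, ATF4 and its partners, the complex scaffold genes, the proofreading genes and the tRNA exportin gene XPOT, with the 3 ARV-825 libraries as red circles and the 3 DMSO libraries as blue squares. PPP1R15A lies between 47.0 and 53.9 FPKM in ARV-825 and below 10 FPKM in DMSO, while ATF4, CEBPG, EEF1E1 and XPOT lie far lower in ARV-825 than in DMSO.

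Precision was high for most members. The coefficient of variation between libraries had a median of 4.68% in ARV-825 and 1.68% in DMSO over the 35 genes. ARV-825 replicate 1 had the highest value of its group for 22 of them. Without that library 16 cytosolic genes were called lower and 2 higher, with HARS1 no longer called, and 12 mitochondrial genes were called lower and 3 higher.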

How the data were processed

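The authors deposited FPKM values, 1 table for all 6 libraries, made with HISAT2 2.0.5 per the submitters' processing notes. Those notes name mm10, a mouse build, but all 58735 identifiers are human and occur in GENCODE 29 (GRCh38), which gave exon lengths, coordinates and overlaps. ARV-825 was used at 125 nM. The counting tool was not given in the sources used here, nor was the scale behind the deposited FPKM. Multiplying FPKM by exon length gave whole fragments, within 0.05, for 100% of values, and these totals are the depths. The per-million scale implied by the deposited FPKM was not these totals. It was 14580441 to 15032448 in ARV-825, below the total of each library, and 17215685 to 20183214 in DMSO, above it. The libraries were made with a TruSeq kit that does not keep strand.

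Values were tested as log2(FPKM + 1) with limma 3.58.1 in R 4.3.3 (moderated test with an intensity trend, no block), after a filter at a mean of 1 FPKM, with Benjamini-Hochberg adjustment over all 13442 genes. The script was tested on simulated data. Every member is named. Of the other lists, called genes with the largest changes are named, at most 4 per list, and ATF4, DDIT3, EIF2AK1, PPP1R15B and overlapping genes were added after their values were seen. The members and lists were chosen with earlier results of these data known. Alternatives changed the pseudocount, filter, scaling, trend, block and libraries, and 1 scaling, to fragments outside the mitochondrial genome, was chosen after the data were seen.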

Additional observations from a re-analysis of the deposited data

How the results depend on the processing

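Over the 34 tested synthetase genes, 355 of the single-gene results under other settings kept direction and side of the threshold, 17 lost the call and 2 reversed, and with 1 library left out 185 kept both, 19 lost the call and 0 reversed. Under TPM HARS1 (−0.18), RARS2 (−0.0655), GATC (−0.24), EIF2AK1 (−0.24) and DDIT3 (−0.0347) reversed. Of these HARS1, GATC and EIF2AK1 were called lower under TPM (limma adjusted p = 0.0190, 0.00926 and 0.00222). RARS2 and DDIT3 were not called there (limma adjusted p = 0.384 and 0.482). GATC (−0.0282 and −0.0349) and EIF2AK1 (−0.0167 and −0.0170) also reversed when scaled to fragments in genes and under voom on recovered fragments. TPM gave 3176 genes higher and 7214 lower (30.6% of calls higher, against 47.9% of the 4977 and 5405 reported), 2978 lower past the larger threshold, 1 mitochondrial synthetase gene higher and 2 genes higher in the other lists. Past the larger threshold were 11 cytosolic and 8 mitochondrial synthetase genes under TPM, against 6 and 2 as reported, 5 to 8 and 2 to 4 under the other settings. A pseudocount of 0.01 gave 1779 genes higher past the larger threshold, and voom gave 2536 lower. The cytosolic median was −1.10 under TPM, −0.87 scaled to fragments in genes, −0.73 under quantile normalization and −0.88 under voom. The mitochondrial median was −1.04 under TPM, −0.84 under voom and −0.59 with no filter or a filter at 0.1 FPKM, where SARS2 enters. TPM divides by the summed FPKM of a library, which was 348808 to 360662 in ARV-825 and 282667 to 294346 in DMSO. Scaling to fragments in genes replaces a per-million scale that lay below the depths in ARV-825 and above them in DMSO. The cause of the other shifts was not tested. With 1 library left out, 15 to 16 cytosolic genes were lower and 2 to 3 higher, and 9 to 12 mitochondrial genes were lower and 3 higher.

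No label says that replicate numbers pair the samples. Deviations of same-numbered libraries correlated across genes at 0.00421, 0.0414 and 0.0378, and those of differently numbered libraries at −0.0402 to 0.00159. With the replicate number as a block, 15 cytosolic genes were lower and 2 higher, 10 mitochondrial genes lower and 3 higher, and 5279 of all genes lower and 4870 higher. Every library correlated best with its own number, but all of these correlations were small. ARV-825 replicate 1 had 0.00421 with DMSO replicate 1 and 0.00159 with DMSO replicate 3. The design gives no pairing, and whether these values differ from unpaired libraries was not tested.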
